A study of Mus musculus with 8 samples.

Results

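The epithelium of the colon takes up sodium, chloride, potassium and water from the gut contents and, under hormonal and nervous control, secretes chloride and bicarbonate. Sodium-proton exchangers and chloride-bicarbonate exchangers of the apical membrane work side by side in salt uptake, and carbonic anhydrases supply both with protons and bicarbonate from carbon dioxide. Chloride secretion runs through the apical channel Cftr and depends on basolateral loaders such as the sodium-potassium-chloride cotransporter Slc12a2, while the sodium pump built from Atp1a and Atp1b subunits powers both directions and aquaporins let water follow. The genes described here were chosen by symbol alone: the transporter families Slc4, Slc8, Slc9, Slc12, Slc24 and Slc26, the carbonic anhydrases (Car), aquaporins (Aqp), chloride channels and exchangers (Clcn), sodium pump subunits, the colonic proton-potassium pump Atp12a and Cftr. They are 79 of the 14351 genes that could be named on the arrays, read by 82 probe sets, out of 93 such symbols in the RefSeq gene table. The rule also takes in the exchanger scaffolds Slc9a3r1 and Slc9a3r2 and the nuclear protein gene Slc4a1ap, which are not transporters. Slc9a3, which encodes the main apical sodium-proton exchanger of the colon, and the anion transporter Slc26a9 are not analysed here.

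Colon RNA of adult mice was hybridised to Affymetrix arrays, 3 of them titled WT, 3 titled STAT5b-/- and 2 titled REF. WT and REF carry the wild type genotype; STAT5b-/- mice lack STAT5b, a signal-activated transcription factor downstream of growth hormone and cytokine receptors. Strain, age beyond adult, the stretch of colon and the design of the mutation are not given in the sources used here, and the labels do not tie replicates to different animals. The tests therefore rest on the scatter among these arrays, part or all of which may be technical. The labels do not say what sets REF apart from WT, such as whether it is RNA of single mice, a pool or a reference RNA, so REF values stand here as those of a sample of unstated origin. STAT5b-/- replicate 1 is labelled male and all others female.

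Values are linear ratios with the WT mean of each gene at 1, so 1 stands for the wild type level of that gene and no gene's level can be set against another's. The 2 REF columns hold the same numbers to within a relative gap of 2.47e-07, below sampling noise, and enter as 1 sample. The array medians ran from 0.948 to 1.04, and WT replicate 2 lay furthest from the WT median in 44 of the 79 genes (55.7%) and in 55.1% of all genes. Stat5b itself was not lower in the arrays labelled STAT5b-/-: its ratios were 1.16, 1.17 and 1.26, against 0.930 to 1.08 in WT and 1.18 in REF (limma, adjusted p = 0.175). No source used here says whether its probe set lies in the deleted stretch, and a probe set outside it checks nothing, so each direction rests on the labels. The tissue label could not be checked against marker levels, since ratios to WT hold no level.

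The comparison asks which ion, water and bicarbonate transport genes differ between STAT5b-deficient and wild type colon, and how those of absorption stand beside those of secretion. In the arrays labelled STAT5b-/-, the apical sodium-proton exchanger Slc9a2, 3 of 8 Slc26 genes and 5 of 14 carbonic anhydrases were higher. Of the Slc26 genes 0 were lower, with a family median log2 difference of -0.06, and 1 carbonic anhydrase was lower. The proton-potassium pump Atp12a, the water channel Aqp4, Slc12a8 and the chloride loader Slc12a2 were also lower. Of the 79 genes, 18 rose and 7 fell at an adjusted p under 0.05 (limma with Benjamini-Hochberg adjustment over all genes). That is 31.6% in either direction, 22.8% higher and 8.86% lower, beside 21.7%, 13.3% and 8.42% of all 14351 genes, so the share that fell was near the background. Among those, 10 rises and 5 falls reached 2-fold, or 12.7% and 6.33%, against 5.02% and 3.58% of all genes. The groups did not overlap in 34 of the 79 (43.0%), beside 41.5% of all genes, and the median log2 difference was 0.08, beside 0.01.

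Quantile normalization, which forces all arrays to one distribution, left 1 rise and 4 falls, those of Slc26a1, Atp12a, Aqp4, Slc12a8 and Slc12a2. The other 20 genes kept their direction but not the call, with adjusted p between 0.0571 and 0.527. The log2 ratios had an SD over all probe sets of 0.289 to 0.363 on WT arrays and 0.646 to 0.737 on STAT5b-/- arrays. REF, which is not part of the WT mean used as divisor, had an SD of 0.402. Division by the WT mean centres the WT arrays on 1, so their smaller SD is partly built in. Forcing such unequal arrays to one distribution widens WT and narrows STAT5b-/- values in general. Over all genes it left 165 rises and 227 falls, against 1910 and 1209. A call lost under it therefore does not set a gene apart from the rest. Leaving out each array in turn kept the calls of 17 of the 25, and 7 of the 8 that were lost are named below with their values.

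**Figure D1:**
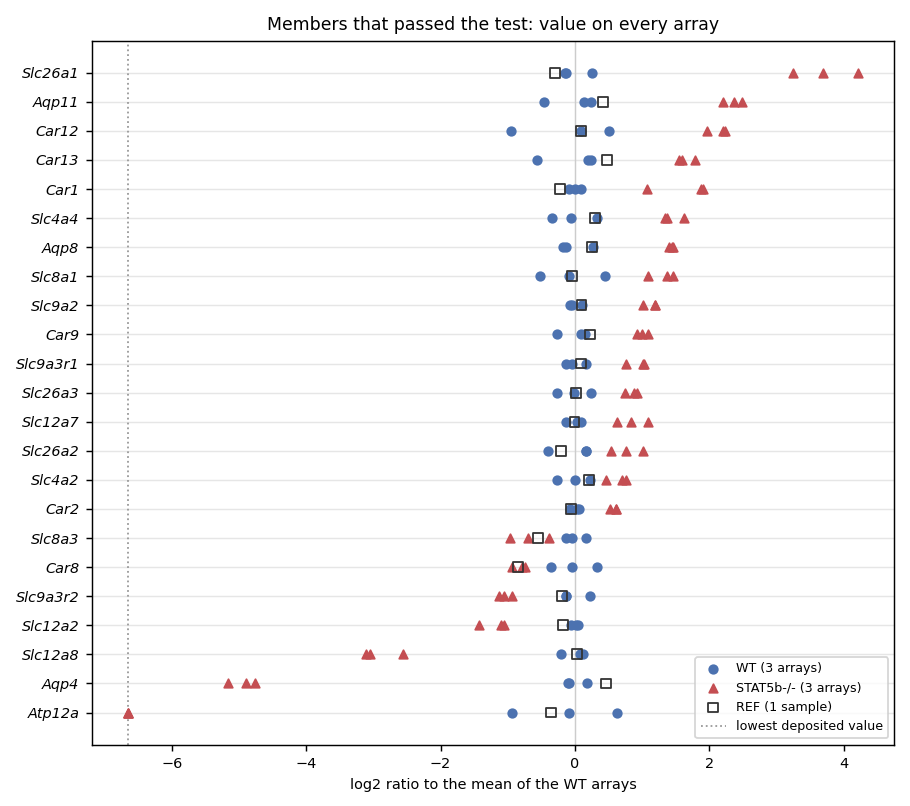
Log2 ratio to the WT mean (x axis) on every array for 23 of the 25 genes that passed the test, with 3 WT arrays as circles, 3 STAT5b-/- arrays as triangles and REF as an open square; the dotted line marks the lowest deposited value, 0.01. In each row the triangles lie wholly to the right or wholly to the left of the circles, and all 3 triangles of Atp12a lie on the dotted line; in Car8 and Slc8a3 the REF square lies among the triangles.

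The families are small, and each count given for them stands beside 13.3% higher and 8.42% lower over all genes. Of the 7 measured Slc9 symbols 3 rose and 1 fell. Slc9a2, an apical exchanger of the intestinal epithelium, had ratios of 0.968, 0.948 and 1.08 in WT, 2.29, 2.29 and 2.01 in STAT5b-/- and 1.07 in REF. All STAT5b-/- arrays were thus about as far above WT, with REF inside the WT range, and the rise was 1.14 ± 0.13 on the log2 scale (SE; 2.20-fold, limma adjusted p = 0.00167). Slc9a8 of the Golgi, at a log2 difference of 0.27 (95% interval -0.06 to 0.59), and the endosomal Slc9a9, at -0.45 (-1.02 to 0.12), did not pass. In Slc9a9 the STAT5b-/- arrays were spread from 0.505 in the male replicate 1 to 0.951.

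The scaffold proteins that hold Slc9a3 and Cftr at the apical membrane went in opposite directions. Slc9a3r1 rose, with ratios of 2.03, 1.70 and 2.02 in STAT5b-/- against 0.913 to 1.12 in WT and 1.06 in REF (0.94 ± 0.14, adjusted p = 0.00509). Slc9a3r2 fell, with ratios of 0.455, 0.522 and 0.481 against 0.913 to 1.17 in WT and 0.871 in REF (-1.03 ± 0.15, adjusted p = 0.00424). Slc9a3r2 is read by 2 probe sets, whose log2 differences were -1.01 and -1.06.

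Anion exchangers of the Slc26 family rose in 3 of 8 and fell in 0. Slc26a1, a sulfate and oxalate exchanger, had ratios of 1.19, 0.909 and 0.905 in WT and 0.815 in REF, and of 18.5, 12.9 and 9.50 in STAT5b-/-. Every STAT5b-/- array lay far above every wild type one, and the rise of 3.73 ± 0.26 on the log2 scale (13.3-fold, adjusted p = 0.000354) placed it at rank 21 among the rises of all genes. Slc26a3, the apical chloride-bicarbonate exchanger whose loss causes congenital chloride diarrhoea, had ratios of 1.18, 0.830 and 0.987 in WT, 1.89, 1.84 and 1.67 in STAT5b-/- and 1.01 in REF. Its groups did not overlap and it rose by 0.86 ± 0.16 (1.82-fold, adjusted p = 0.0110), with an adjusted p of 0.0506 without STAT5b-/- replicate 2. Slc26a2, a sulfate transporter, rose by 0.79 ± 0.21 (adjusted p = 0.0368), with ratios of 1.70, 2.01 and 1.45 against 0.758 to 1.12 in WT and 0.868 in REF. That call was lost without any of the STAT5b-/- arrays, WT replicate 1 or WT replicate 3 (adjusted p from 0.0515 to 0.125), so its rise is near the limit of these arrays. Slc26a6, another apical anion exchanger, did not pass, at -0.55 (95% interval -1.09 to -0.01, adjusted p = 0.133), and its STAT5b-/- replicate 2 lay at 0.917 within the WT range of 0.842 to 1.17, while REF lay at 0.596. The iodide and chloride exchanger Slc26a4 was at -0.06 (-0.64 to 0.51), and Slc26a5, Slc26a7 and Slc26a11 lay between -0.24 and -0.05.

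Among the bicarbonate transporters of the Slc4 family, 2 of 9 rose and 0 fell, near the 21.7% of all genes that passed in either direction. Slc4a4, the basolateral sodium-bicarbonate cotransporter, had ratios of 0.962, 1.25 and 0.790 in WT, 3.07, 2.52 and 2.57 in STAT5b-/- and 1.23 in REF. The STAT5b-/- arrays stood well clear of the others, with a rise of 1.46 ± 0.19 (2.76-fold, adjusted p = 0.00322). Slc4a2, the basolateral chloride-bicarbonate exchanger, had ratios of 1.63, 1.70 and 1.37 against 0.833 to 1.17 in WT and 1.16 in REF. It rose by 0.66 ± 0.17 (adjusted p = 0.0342), a call lost without any of the STAT5b-/- arrays or without WT replicate 1 (adjusted p from 0.0591 to 0.121). The sodium-bicarbonate cotransporter Slc4a7 had a difference of 0.41 that did not pass (-0.03 to 0.84, adjusted p = 0.165). Slc4a1, the anion exchanger of red blood cells, was at -0.09 (-0.55 to 0.38), and the remaining Slc4 symbols lay between -0.30 and 0.25.

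The cation-chloride cotransporters of the Slc12 family moved both ways, with 2 of 9 risen and 2 fallen. Slc12a2, which loads the cell with chloride for secretion, had ratios of 1.01, 1.03 and 0.964 in WT and 0.887 in REF, and of 0.465, 0.370 and 0.483 in STAT5b-/-. The WT arrays were tight and the STAT5b-/- arrays lay at less than 0.5 of their mean, a fall of 1.20 ± 0.14 on the log2 scale (2.29-fold lower, adjusted p = 0.00225). Slc12a8, a more distant family member, had ratios of 1.05, 0.863 and 1.09 in WT, 0.121, 0.116 and 0.169 in STAT5b-/- and 1.02 in REF, a 7.48-fold fall (-2.90 ± 0.19, adjusted p = 0.000266). Slc12a7, a potassium-chloride cotransporter that lets chloride out of the cell, rose by 0.86 ± 0.16, with ratios of 2.13, 1.79 and 1.55 against 0.916 to 1.06 in WT (adjusted p = 0.00990). Slc12a4, of the same kind, was at -0.18 (-0.69 to 0.33) and did not pass. Slc12a9, at 0.50, and the neuronal Slc12a5, at 0.35, did not overlap between groups and did not pass (adjusted p = 0.0512 and 0.0854), and Slc12a9 passed without WT replicate 2 (adjusted p = 0.0431). The kidney transporters Slc12a1 and Slc12a3 were at 0.12 and 0.20.

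Sodium-calcium exchangers also split. Slc8a1, the plasma membrane exchanger of heart, muscle and many epithelia, had ratios of 0.699, 1.36 and 0.940 in WT, 2.12, 2.57 and 2.74 in STAT5b-/- and 0.974 in REF. All STAT5b-/- arrays exceeded even the highest WT array, and it rose by 1.35 ± 0.25 (2.55-fold, adjusted p = 0.0111, or 0.0503 without STAT5b-/- replicate 2). Slc8a3 fell by 0.68 ± 0.18, from 0.912 to 1.12 in WT to 0.767, 0.513 and 0.615 (adjusted p = 0.0391). REF, at 0.685, lay among the STAT5b-/- arrays, the fall did not pass with REF counted as wild type (adjusted p = 0.0942), and it was lost without any single array but STAT5b-/- replicate 1 (0.0617 to 0.121). Slc8a2 was at -0.32 (-0.73 to 0.10), and 0 of the 4 Slc24 potassium-dependent exchangers passed, with differences from -0.41 to 0.26.

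**Figure D2:**
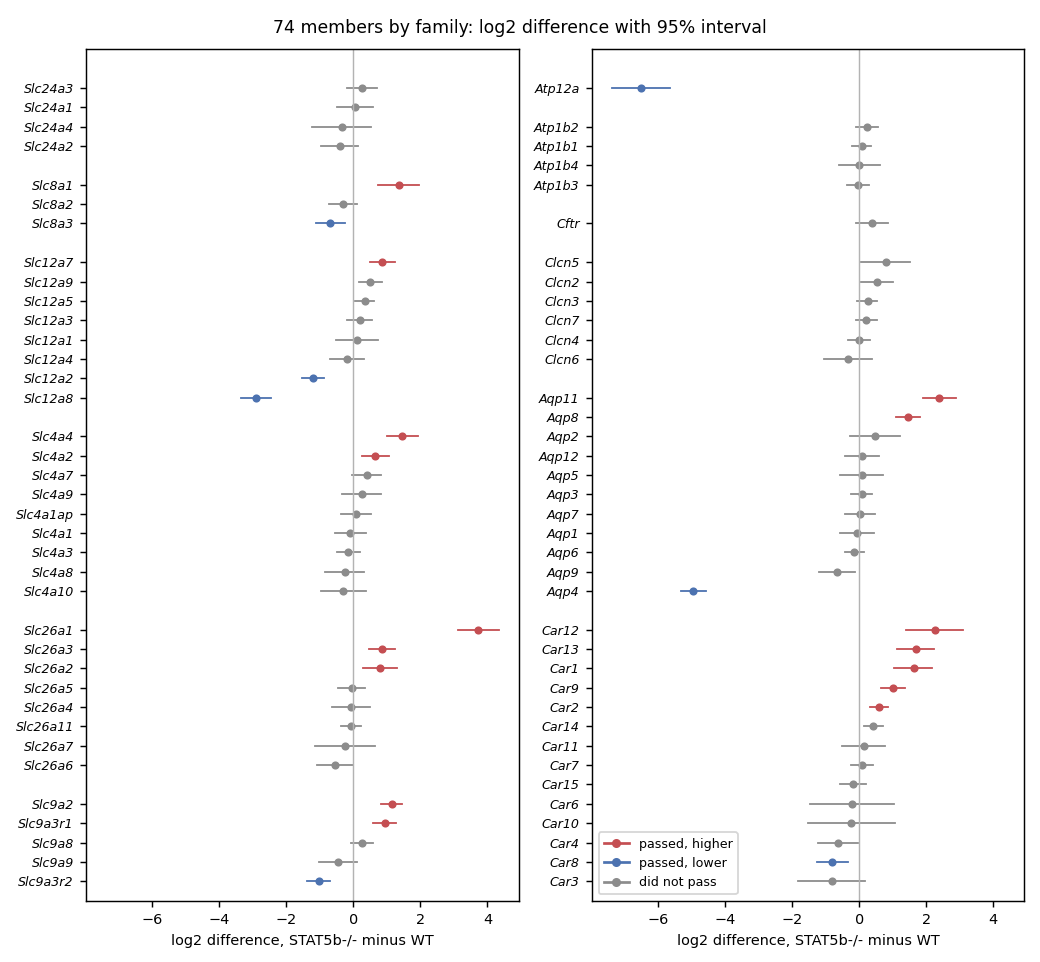
Log2 difference, STAT5b-/- minus WT (x axis), with its 95% interval from limma for 74 of the 79 genes grouped by family; red passed as higher, blue passed as lower and grey did not pass after adjustment. Atp12a at -6.51 and Aqp4 at -4.94 lie furthest to the left and Slc26a1 at 3.73 furthest to the right. The Atp1b genes lie between -0.03 and 0.24. The interval of Atp12a treats its floor values as measured.

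Carbonic anhydrases interconvert carbon dioxide and bicarbonate, and 5 of the 14 rose while 1 fell. Of the cytosolic enzymes, Car1, abundant in the colon epithelium, had ratios of 1.06, 1.00 and 0.936 in WT, 2.10, 3.66 and 3.75 in STAT5b-/- and 0.860 in REF. The male STAT5b-/- replicate 1 was the lowest of its group yet above all WT arrays, and the rise was 1.62 ± 0.24 (3.07-fold, adjusted p = 0.00469). Car13 rose by 1.68 ± 0.23 (3.21-fold), with ratios of 3.43, 3.02 and 2.92 against 0.676 to 1.18 in WT and 1.39 in REF (adjusted p = 0.00374). Car2, the fast and widespread enzyme, rose by only 0.58 ± 0.11, with ratios of 1.43, 1.53 and 1.53 against 0.946 to 1.04 (adjusted p = 0.0132). The groups of Car2 were tight and apart, but its call was lost without STAT5b-/- replicate 2 or 3 (adjusted p = 0.0611 and 0.0626). Car3, the enzyme of muscle and fat, lay the other way, with ratios of 0.417, 0.442 and 0.696 in STAT5b-/-. Its WT arrays ran from 0.529 to 1.66 and overlapped these, REF lay at 0.379, and the difference of -0.82 did not pass (-1.83 to 0.18, adjusted p = 0.223), though it did without WT replicate 2 (-1.20, adjusted p = 0.0488). In the gene table's order of protein-coding genes Car13, Car1, Car3 and Car2 are direct neighbours, so the gene that did not rise lies between genes that did.

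Membrane-bound carbonic anhydrases act on the outer face of the cell. Car12 had ratios of 4.68, 4.59 and 3.89 in STAT5b-/-, 1.06, 0.515 and 1.42 in WT and 1.06 in REF, and rose 4.75-fold (2.25 ± 0.36, adjusted p = 0.00617). Car9, which is induced by low oxygen in many tissues, ran from 1.89 to 2.13 in STAT5b-/- against 0.829 to 1.11 in WT and 1.17 in REF, and rose 2.02-fold (1.02 ± 0.15, adjusted p = 0.00485). Car4, the lipid-anchored enzyme of the apical surface, did not follow them. Its ratios were 0.658, 0.617 and 0.588 in STAT5b-/-, just below WT at 0.956, 1.37 and 0.679, with REF at 0.752. The difference of -0.63 did not pass (-1.22 to -0.04, adjusted p = 0.123), but passed without WT replicate 3 (-0.88, adjusted p = 0.0351). Car14 was at 0.42 (0.13 to 0.72, adjusted p = 0.0533) and passed without WT replicate 2 (adjusted p = 0.0321). Car8, a relative without enzyme activity, fell by 0.80 ± 0.19, with ratios of 0.580, 0.522 and 0.595 against 0.777 to 1.26 in WT (adjusted p = 0.0275). REF, of wild type genotype, was as low, at 0.557, and the call was lost with REF counted as wild type (adjusted p = 0.141) and without any single array but WT replicate 2 (0.0601 to 0.102). Car6 and Car10 had WT replicate 2 at 1.92 and 1.82 and the other WT arrays at or below 0.636, so their differences of -0.22 and -0.23 carry standard errors of 0.53 and 0.55.

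Of the 11 water channels 2 rose and 1 fell, near the shares over all genes, 13.3% higher and 8.42% lower. Their median log2 difference was 0.07. Aqp4, a basolateral water channel, had ratios of 1.13, 0.931 and 0.942 in WT and 1.38 in REF, and of 0.0370, 0.0278 and 0.0335 in STAT5b-/-. It was low on every STAT5b-/- array and on no other, a 30.6-fold fall (-4.94 ± 0.16, adjusted p = 2.22e-05) at rank 16 among the falls of all genes. The size of this fall depended on the processing. Its log2 difference was -3.05 with 0.1 added to each ratio and -3.35 after quantile normalization. Aqp8, the water channel of surface colonocytes, was higher by a similar amount in every STAT5b-/- array, with ratios of 2.75, 2.71 and 2.65 against 0.886 to 1.20 in WT and 1.19 in REF (2.73-fold, 1.45 ± 0.15, adjusted p = 0.00135). Aqp11, which resides in the endoplasmic reticulum, had ratios of 5.17, 4.60 and 5.62 against 0.724 to 1.18 in WT and 1.33 in REF, and rose 5.22-fold (2.38 ± 0.21, adjusted p = 0.000766). The glycerol and water channel Aqp3, a basolateral channel of colonocytes, was at 0.07 (-0.24 to 0.39), and Aqp1 of vessels and red blood cells at -0.07 (-0.58 to 0.45). Aqp9, at -0.66, had groups that did not overlap but did not pass (-1.19 to -0.12, adjusted p = 0.0830). Aqp2 was high in the male STAT5b-/- replicate 1 alone, at 2.26 beside 1.01 and 1.16 in the other STAT5b-/- arrays, with REF at 1.65.

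Atp12a, the pump that takes up potassium in exchange for protons at the apical membrane of the distal colon, was at the lowest deposited value of 0.01 in all 3 STAT5b-/- arrays. Its WT arrays differed among themselves, at 0.937, 1.54 and 0.523, and REF lay at 0.779. With the floor taken as a measured value, the fall was 91.0-fold, at -6.51 on the log2 scale (95% interval -7.37 to -5.65, limma adjusted p = 0.000157). That placed it at rank 3 among the falls of all genes. The STAT5b-/- values have an SD of 0, so the interval, the p and the rank rest on the floor and on the WT scatter. The size of the fall depended on the processing too. The log2 difference of Atp12a was -3.21 with 0.1 added to each ratio and -4.50 after quantile normalization. Of the 4 genes named Atp1b, the family that holds the beta subunits of the sodium pump, 0 passed the test. Atp1b1, the main beta subunit of most epithelia, was at 0.08 (-0.20 to 0.35) and Atp1b3 at -0.03 (-0.35 to 0.29), so that changes of 2-fold lie outside these intervals. Atp1b2 was at 0.24 (-0.08 to 0.55) and Atp1b4 at 0.01 (-0.60 to 0.62).

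The chloride channel Cftr, the exit for chloride and bicarbonate in secretion, had ratios of 1.08, 0.751 and 1.17 in WT, 1.49, 1.15 and 1.25 in STAT5b-/- and 1.02 in REF. The groups overlapped and the difference of 0.39 did not pass (-0.09 to 0.87, adjusted p = 0.230). None of the 6 Clcn genes passed. Clcn2, a chloride channel of the epithelial cell membrane, was at 0.54 (0.06 to 1.02, adjusted p = 0.107), with REF at 1.47 beside 1.19, 1.64 and 1.49 in STAT5b-/-. The endosomal exchanger Clcn5 was at 0.79 (0.04 to 1.53, adjusted p = 0.123) and passed without WT replicate 2 (1.04, adjusted p = 0.0381). Of the WT arrays that one, at 1.33, lay nearest to the STAT5b-/- range of 1.43 to 1.81. Clcn3, read by 2 probe sets that differed by at most 0.00153 in ratio, was at 0.25 (-0.05 to 0.54), and Clcn4, Clcn6 and Clcn7 lay between -0.33 and 0.21.

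Absorption was compared with secretion through lists of genes placed by their main described role. The placement of the basolateral exchanger Slc4a2 under absorption and of the channel Clcn2 under secretion can be disputed. The counts and medians below depend on such placements. Of the 14 absorption genes 13 were measured. Of these 7 rose (Car1, Aqp8, Slc9a2, Slc9a3r1, Slc26a3, Slc4a2 and Car2), 3 fell (Atp12a, Aqp4 and Slc9a3r2) and 3 did not pass (Slc9a8, Slc26a6 and Car4). Of the 6 secretion genes 5 were measured, of which Slc4a4 rose, Slc12a2 fell and Cftr, Clcn2 and Slc4a7 did not pass. Over all genes 13.3% rose and 8.42% fell. The lists are short and were chosen with earlier results of these data known. The median log2 difference was 0.58 for absorption and 0.41 for secretion, beside 0.01 over all genes. On the single STAT5b-/- arrays the median log2 ratio was 0.51, 0.61 and 0.46 for absorption and 0.57, 0.50 and 0.32 for secretion, against -0.08 to -0.02 and -0.05 to 0.01 on the WT arrays and -0.02 and 0.03 in REF. The medians of the lists thus lay close together, with the absorption list running from -6.51 to 1.62 and the secretion list from -1.20 to 1.46. The difference between the lists was not tested, since genes are not replicates.

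**Figure D3:**
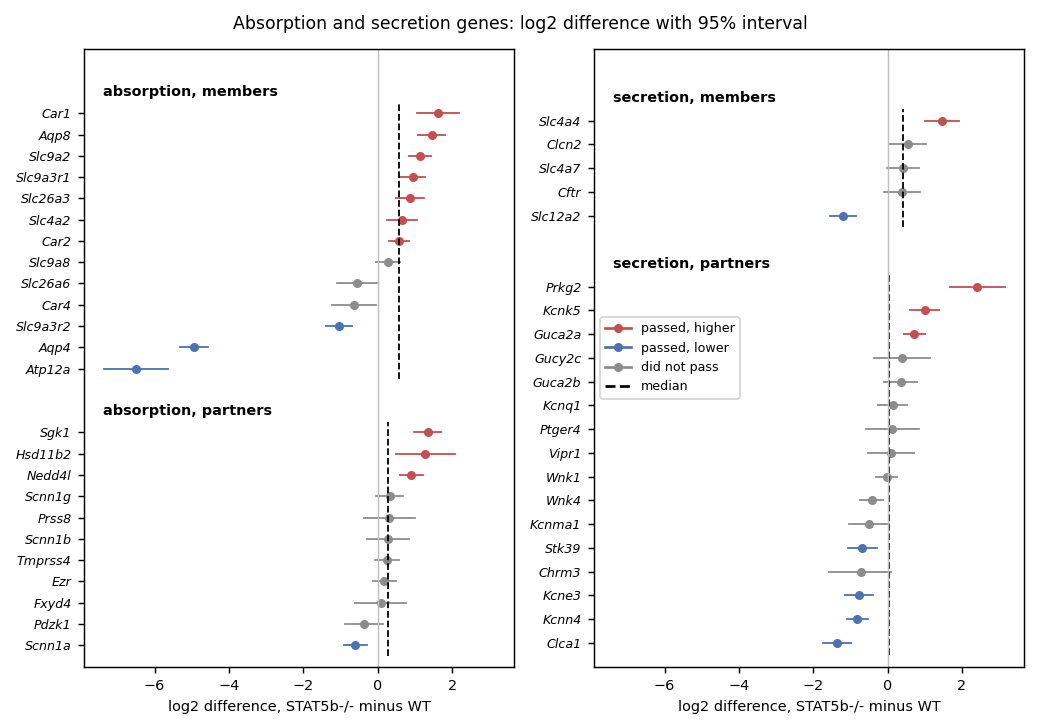
Log2 difference, STAT5b-/- minus WT (x axis), with 95% intervals for the absorption genes (left) and secretion genes (right), each above partner genes outside the transporter families; dashed lines are list medians, 0.58 and 0.41 for the members and 0.27 and 0.03 for the partners. Red passed as higher, blue as lower and grey did not pass; Atp12a and Aqp4 stand far to the left of the other absorption genes.

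Genes that work beside these transporters, placed in lists by known role, were mixed. Among 11 measured partners of absorption, 3 rose and 1 fell, beside 13.3% and 8.42% of all genes. Sgk1, the kinase that raises sodium channel activity under aldosterone, rose by 1.34 ± 0.15, with ratios of 2.42, 2.45 and 2.69 against 0.829 to 1.09 in WT and 1.46 in REF (adjusted p = 0.00176). Nedd4l, the ligase that removes the sodium channel, rose by 0.90 ± 0.13 (adjusted p = 0.00433). Hsd11b2, which shields the mineralocorticoid receptor from glucocorticoids, rose by 1.28 ± 0.33 (adjusted p = 0.0345), a call lost without any single array but WT replicate 2 (0.0731 to 0.122). The sodium channel subunit Scnn1a fell by 0.61 ± 0.13 (adjusted p = 0.0167), lost without any single array but WT replicate 2 (0.0509 to 0.0690), with REF at 1.42 above all WT arrays, while Scnn1b and Scnn1g were at 0.27 and 0.32 and did not pass. Quantile normalization ended all 4 calls, with adjusted p of 0.134 for Sgk1, 0.179 for Nedd4l, 0.198 for Hsd11b2 and 0.300 for Scnn1a, each in the same direction.

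Among 16 measured partners of secretion, 3 rose and 4 fell, beside 13.3% and 8.42% of all genes. Prkg2, the kinase through which guanylin signals reach Cftr, rose by 2.41 ± 0.31, with ratios of 7.06, 4.04 and 4.66 against 0.683 to 1.38 in WT and 0.948 in REF (adjusted p = 0.00292). Its ligand gene upstream, Guca2a, rose by 0.72 ± 0.11 (adjusted p = 0.00590), while the receptor Gucy2c was at 0.39 and did not pass (adjusted p = 0.447). The potassium channels that drive chloride exit differed: Kcnk5 rose by 1.00 ± 0.16 (adjusted p = 0.00710), Kcnn4 fell by 0.82 ± 0.12 (adjusted p = 0.00433) and Kcnq1 was at 0.13. Kcne3, the partner subunit of Kcnq1, fell by 0.76 ± 0.16 (adjusted p = 0.0157), a call lost without STAT5b-/- replicate 1 or 2 (0.0579 and 0.0693). Clca1, a goblet cell product that also stands in the goblet list below, fell by 1.36 ± 0.16 (adjusted p = 0.00191). Stk39, a kinase that activates Slc12a2, fell by 0.68 ± 0.16 (adjusted p = 0.0266), a call lost without any single array but WT replicate 2 (0.0590 to 0.101). Of these 7 calls quantile normalization kept that of Clca1, and the other 6 were lost in the same direction, with adjusted p of 0.171 for Prkg2, 0.138 for Guca2a, 0.246 for Kcnk5, 0.0774 for Kcnn4, 0.185 for Kcne3 and 0.348 for Stk39.

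STAT5 binds a short palindrome, and promoters were searched for it because the mice lack STAT5b. RefSeq promoters of build GRCm38.p6, from 250 bases before to 50 after each annotated start, were held for 59 of the 79 genes, 11 that rose, 3 that fell and 45 that did not pass. The palindrome TTCNNNGAA, which reads the same on both strands, was found in 3 of the 59 (5.08%), beside 9.55% of the 27025 genes with a promoter and 8.30% of all 32851 promoters. Among the genes that passed it was found in Slc12a8 only, and the other matches were in Clcn7 and Atp1b4, which did not pass. These stretches are shown, 5′ to 3′ on the gene's strand with the palindrome in capitals, as the places where these letters occur.
Slc12a8, chr16:33517078-33517137, plus strand: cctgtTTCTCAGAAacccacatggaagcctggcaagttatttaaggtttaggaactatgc
Clcn7, chr17:25133221-25133280, plus strand: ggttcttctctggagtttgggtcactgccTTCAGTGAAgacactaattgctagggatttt
Atp1b4, chrX:38316047-38316106, plus strand: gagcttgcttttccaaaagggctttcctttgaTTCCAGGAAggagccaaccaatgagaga
The match begins 245 bases before the start in Slc12a8, 141 before it in Clcn7 and 43 before it in Atp1b4. A match is a description of the letters and not a binding site.

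The TATA box letters TATAAA, searched on both strands, were found in 10 of the 59 genes (16.9%), beside 15.7% of all genes with a promoter and 13.6% of all promoters. Among the rises they were found in Slc26a1 and Slc26a3. In Slc26a1 the letters are on the opposite strand, at position -240 from the start. The stretch of Slc26a3 is shown because it is the chloride-bicarbonate exchanger of the absorption list, with these letters in capitals, 30 bases before the start.
Slc26a3, chr12:31438144-31438203, plus strand: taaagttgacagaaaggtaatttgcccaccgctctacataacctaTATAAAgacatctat

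REF is labelled wild type and lies outside the group by which the values were divided. Against WT, 0 of the 79 genes passed, beside 0% of all genes (limma, 1 sample against 3). In the same limma fit 1 gene, Slc26a6, was under an unadjusted 0.05, or 1.27%, beside 1.45% of all genes. REF lay outside the range of the WT arrays in 31 of the 79 genes (39.2%), beside 48.4% of all genes. In 23 of the 25 genes that passed between STAT5b-/- and WT, REF lay on the WT side of all 3 STAT5b-/- arrays, the exceptions being Car8 and Slc8a3. Those 25 genes were selected for a gap between WT and STAT5b-/-, so any sample near WT would lie on that side. The count is therefore no independent check of the calls, and the share over all genes that passed is not given here. Among the rises REF ran from 0.815 in Slc26a1 to 1.39 in Car13.

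Most goblet cell markers and some Hox genes of position along the colon differed between the groups. Few or 0 markers of muscle, vessel, nerve, blood and fat passed. Their part in the differences above was not tested. Each marker count stands beside 13.3% higher and 8.42% lower over all genes. In whole colon RNA, fewer cells of a type and less RNA per cell cannot be told apart. Of 9 epithelial markers 3 rose and 1 fell, and their summed ratio was 11.0 to 12.0 in STAT5b-/- and 8.86 to 9.08 in WT, with 9.80 in REF. Each of these 4 calls (Cdx2, Krt20, Vil1 and Krt18) was lost without at least 1 of the arrays, with adjusted p up to 0.0744, 0.0675, 0.0809 and 0.153. Of 6 goblet cell markers 4 fell and 0 rose, and the sum was 2.76 to 3.53 against 5.39 to 6.43, with 5.39 in REF; the fall of Spink4 among them was lost without any of 3 single arrays, with adjusted p up to 0.0841. Smooth muscle markers passed the test in 0 of 8, with sums of 7.03 to 10.1 against 6.75 to 9.51, endothelial markers fell in 1 of 7 with sums of 6.61 to 7.18 against 6.69 to 7.55, and neuron and glia markers fell in 1 of 8 with sums of 6.64 to 7.85 against 7.32 to 9.00. The neuronal fall, of Snap25, was lost without any single array but WT replicate 2, with adjusted p up to 0.106. Red blood cell markers, Slc4a1 included, passed in 0 of 5, with sums of 3.83 to 4.52 against 3.98 to 6.97. Among 6 fat cell markers Cidec, which enterocytes also express, rose and 0 fell, and Adipoq ran from 0.260 to 1.86 over the WT arrays alone. Of the 6 genes listed for the posterior colon 2 fell, namely Hoxa13, whose call was lost without WT replicate 3 (adjusted p = 0.0561), and Hoxb13 at 0.0128, 0.0455 and 0.0574 against 0.627 to 1.24 in WT and 1.12 in REF. Of 6 Hox genes listed for a more anterior position 4 rose, among them Hoxb8 at 14.2, 12.4 and 12.1 against 0.970 to 1.04 in WT and 1.23 in REF. None of these markers was at the lowest deposited value. Under quantile normalization the calls of Spdef, Agr2, Clca1, Hoxb13, Hoxb4 and Hoxb8 were kept, and the other marker calls, those of all 4 epithelial genes included, were lost, with adjusted p from 0.0541 for Hoxd4 to 0.482 for Cdx2.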

How the data were processed

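The deposited values are linear ratios: the authors divided each probe set by the mean of the 3 WT arrays, as the values show, since the WT mean departs from 1 by at most 1.87e-07. The submitters' processing notes list RMA and give no version for it; array type and probe set definition are not given in the sources used here. Per the labels' protocols, 100 ng of total RNA was amplified and labelled with biotin. The table's lowest value, 0.01, was treated as a floor; 19 probe sets reach it, 1 of them of the genes described. Of 26180 probe sets, 15228 were named through RefSeq accessions (gene table of GRCm38.p6), 0 matched several genes and 10952 none.

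Ratios were taken to log2 with no pseudocount, probe sets of a gene were averaged, and STAT5b-/- was compared with WT by limma 3.58.1 (lmFit, eBayes) in R 4.3.3, with Benjamini-Hochberg adjustment over 14351 genes and a threshold of 0.05. REF, its columns averaged, was compared with WT likewise. Intervals are limma's 95% intervals, unadjusted. Promoters were searched over 300 bases. Ratios hold no signal level, so dim probe sets were kept. Scripts were tested on simulated data. Genes named are all that passed, those of the absorption and secretion lists, the Atp1b genes and those with several probe sets. Of the partner lists, up to 4 that passed in each direction are named. Others named were chosen after their values were seen. The members and lists were chosen with earlier results of these data known. Some genes counted in the totals are not reported here by name. The number of arrays limits the precision.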

Additional observations from a re-analysis of the deposited data

How the results depend on the processing

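With all alternatives for the 25 genes that passed, 0 of their values changed sign, and 5 (Slc26a1, Slc12a2, Slc12a8, Aqp4 and Atp12a) kept the call in every fit that could be made; leaving out probe sets at the floor removes Atp12a. Quantile normalization left 1 gene higher and 4 lower, and the list medians moved to 0.41 for absorption and 0.26 for secretion; over all genes it left 165 rises and 227 falls, against 1910 and 1209. Requiring a 2-fold change, chosen after seeing the data, left 10 higher and 5 lower. Leaving out single arrays gave 13 to 21 higher and 5 to 7 lower, medians of 0.53 to 0.62 for absorption and 0.30 to 0.52 for secretion, and 0 genes in either direction for REF. Deviations of same-numbered WT and STAT5b-/- arrays correlated at 0.04, -0.10 and -0.19, which shows no pairing by number. With 3 arrays per group these values cannot exclude shared handling of same-numbered samples, and the labels do not describe it. With the replicate number as a block 16 genes were higher and 6 lower, without Car2, Slc4a2 and Slc8a3 (limma adjusted p = 0.0598, 0.0974 and 0.102). The medians then stayed at 0.58 and 0.41, and over all genes there were 1238 rises and 801 falls. With REF added to WT 21 were higher and 5 lower. A pseudocount of 0.1 added to each ratio gave 19 higher and 7 lower, with smaller falls for Aqp4 and Atp12a, as given above. All groups in 1 fit gives the same calls by construction, as 1 REF sample adds no spread. Differences near 0 changed sign in Atp1b genes that did not pass. With quantile normalization Atp1b3 was at 0.0078, and with REF as wild type Atp1b4 was at -0.01. Leaving out single arrays gave -0.09 to 0.04 for Atp1b3 and -0.22 to 0.24 for Atp1b4. The cause of these changes was not tested. A filter on low signal and the depth behind each value could not be tried on ratios.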
